A study of Drosophila melanogaster with 30 samples.

Results

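The transmitter identity genes are the genes whose enzymes and transporters decide which chemical signal a neuron can make, load into vesicles and take up again. The set held 10 of the 17480 genes with a value in these profiles. It was composed of ChAT and VAChT for acetylcholine, ple and DAT for dopamine, Trh and SerT for serotonin, Ddc and Vmat, which serve both monoamines, VGlut for glutamate and Gad1 for GABA. The members were chosen by name, with earlier results of these data known. Trh was read from the entry Trhn, the neuronal tryptophan hydroxylase, because Trh alone matches several entries of the gene table.

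Kenyon cells, the intrinsic neurons of the Mushroom Bodies (MBs), use acetylcholine. Dopaminergic and serotonergic neurons reach the MB lobes from outside, and GABA and glutamate are released there by other cells. A Kenyon cell therefore expresses ChAT and VAChT as a rule, while the other genes mark neurons that contact it. CrebB is the fly CREB protein, a transcription factor that long-term memory requires, and its position at a gene says nothing by itself about whether that gene is transcribed.

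The data are Targeted DamID (TaDa) profiles from 30 samples of adult fly heads, with 50 to 100 heads in each. The flies carried tubGal80ts and mb247-Gal4, a driver for MB cells, together with either UAS-Dam::CrebB or UAS-Dam. Dam methylates adenine in GATC sites close to the place where the protein sits. The naïve flies were not trained. Paired flies received an odor together with sucrose, and unpaired flies received both at separate times. Expression was induced at 29°C from 3 h before training to 24 h after it (TI-1), or from 24 to 48 h after it (TI-2), and the labels put the naïve flies at time 0 and in neither interval. Each of the 5 groups (naïve, unpaired TI-1, paired TI-1, unpaired TI-2 and paired TI-2) had 3 replicates, and each replicate gave 1 profile of log2 ratios, Dam::CrebB divided by Dam-only. As a model these samples have limits: CrebB came from a transgene fused to Dam, the heads were pooled, and only the driver restricts the signal to MB cells. A weak signal in many cells and a strong one in few cannot be told apart.

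The value of a gene is the mean log2 ratio over the GATC fragments that overlap its body, weighted by fragment length. A value of 0 stands for as much methylation by Dam::CrebB as by Dam-only, but fragments with few reads are also drawn towards 0. A gene was called where limma, fitted over all genes, gave a p under 0.01 after Benjamini-Hochberg adjustment and the mean was beyond 0.2 in size. The replicate profiles did not all match. Paired TI-1 replicate 3 stood apart, with a Pearson's r to the other profiles between -0.20 and 0.62 across genes, and a median gene value of 0.62 against -0.003 to 0.12 in the other 14. Paired TI-2 replicate 3 had the next widest spread across fragments, with an SD of 0.80 against 0.32 to 0.525 in the remaining 13. Of the lists of marker genes, 8 of 10 MB genes were called higher than Dam-only over the 5 groups, and 6 of 10 without paired TI-1 replicate 3. Of all genes, 28.6% were called higher. The count was 2 of 6 for glia, 0 of 7 for photoreceptors and 0 of 6 for fat body. These lists count CrebB signal and not RNA.

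**Figure D1:**
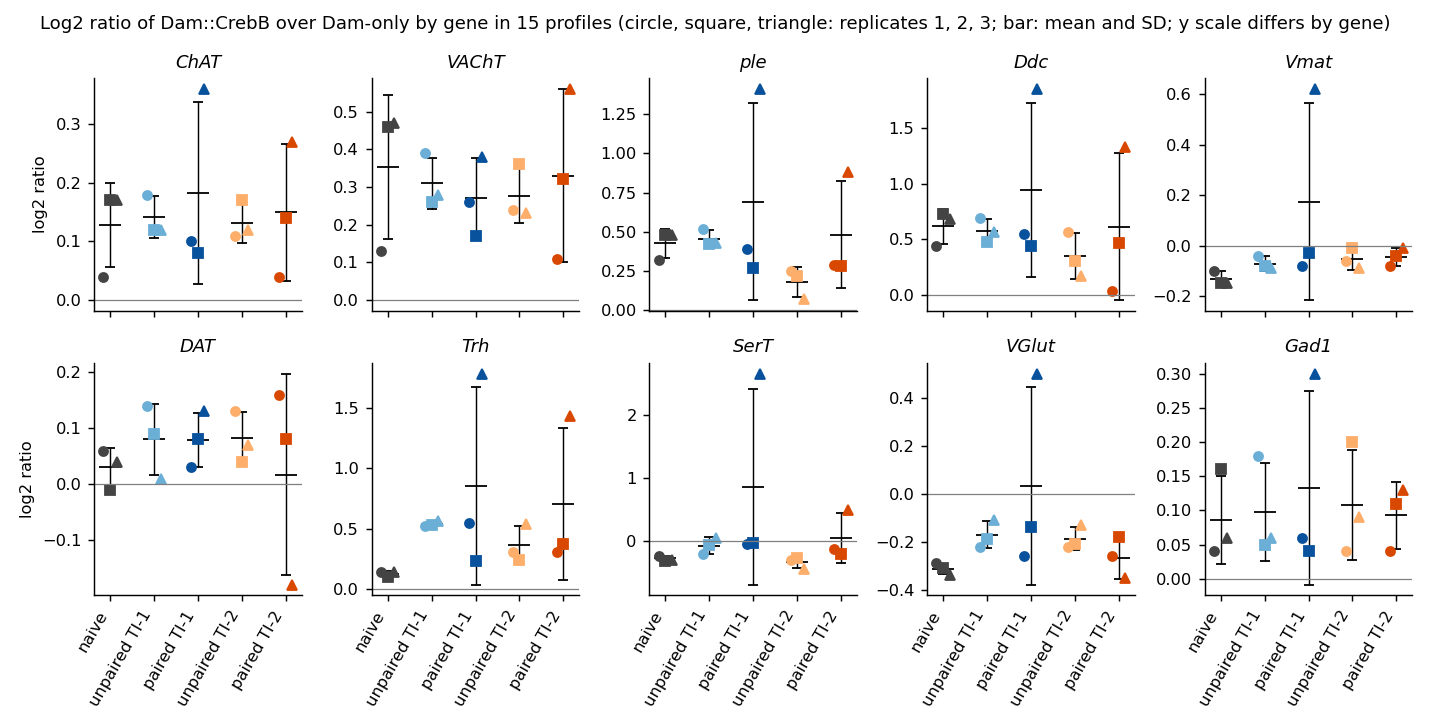
Log2 ratio of Dam::CrebB to Dam-only (y axis, a separate scale for each gene) of the 10 genes in the 5 groups (x axis); each point is 1 profile and the bars give the mean and SD of 3 replicates. The triangle of paired TI-1 replicate 3 is the highest of the 15 points for all genes except VAChT and DAT. Trh and Vmat lie higher in all trained than in all naïve profiles, as do 2.92% of all genes.

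Both cholinergic genes were above Dam-only in 15 of 15 profiles, but they did not hold the highest values of the set. ChAT, choline acetyltransferase, makes acetylcholine. Its log2 ratio was 0.04, 0.17 and 0.17 in naïve flies. It was 0.18, 0.12 and 0.12 in unpaired and 0.10, 0.08 and 0.36 in paired flies at TI-1, and 0.11, 0.17 and 0.12 in unpaired and 0.04, 0.14 and 0.27 in paired flies at TI-2. The 5 groups overlapped, and the mean of the group means was 0.15 ± 0.026 (SE). With limma its adjusted p was 0.000481, yet the mean was under the minimum size of 0.2, so ChAT was not called.

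VAChT loads acetylcholine into vesicles. Its values were 0.13, 0.46 and 0.47 in naïve flies. At TI-1 they were 0.39, 0.26 and 0.28 in unpaired and 0.26, 0.17 and 0.38 in paired flies, and at TI-2 they were 0.24, 0.36 and 0.23 in unpaired and 0.11, 0.32 and 0.56 in paired flies. The lowest naïve and the lowest paired TI-2 value both came from replicate 1, and no group stood apart. VAChT was called higher than Dam-only, with a mean of 0.31 ± 0.038 (SE; 1.24-fold) and an adjusted p of 3.2e-05 in limma. Its mean was at or above that of 74.2% of all genes, against 58.9% for ChAT.

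These 2 genes are not independent measurements, because VAChT lies within ChAT. On chromosome arm 3R of release 6, ChAT spans 18705501 to 18732344 and VAChT 18705501 to 18718916. ChAT overlaps 71 fragments, and all 32 fragments of VAChT are among them. Over the stretch shared with VAChT the mean log2 ratio was 0.31, whereas over the 39 fragments of ChAT outside VAChT it was -0.03. The shared stretch was higher in 15 of 15 profiles, by 0.04 to 0.62. Outside VAChT the value was above 0 in 1 of 15 profiles. The signal was also uneven along ChAT as a whole. Its 10 fragments that begin before 4500 bp, the last of which ends at 6031 bp, had a mean of 0.53. Its other 61 fragments, inside and outside VAChT, had a mean of 0.02. The bound of 4500 bp was chosen after the fragment values had been seen.

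The enzymes of monoamine synthesis had the highest means of the set over the 5 groups. They are also its shortest genes, with 2790 bp for Trh, 3824 bp for Ddc and 6170 bp for ple. ChAT has 26844 bp and VAChT 13416 bp. SerT (6480 bp) and DAT (6672 bp) are little longer than ple and had low values. A fragment of a given length weighs more in a short gene, and a relation of gene value to gene length was not tested. ple, the tyrosine hydroxylase that limits dopamine synthesis, had values of 0.32, 0.48 and 0.48 in naïve flies. At TI-1 these were 0.52, 0.42 and 0.43 in unpaired and 0.39, 0.27 and 1.41 in paired flies, and at TI-2 0.25, 0.22 and 0.07 in unpaired and 0.29, 0.28 and 0.88 in paired flies. The 2 highest values were those of the paired replicates 3. ple was called higher than Dam-only, with a mean of 0.45 ± 0.080 (SE; 1.36-fold) and an adjusted p of 0.000547 in limma. In naïve flies ple was at or above 80.5% to 83.7% of all genes.

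Ddc encodes the decarboxylase that forms dopamine and serotonin, and it is also used outside neurons to build cuticle. Its values were 0.44, 0.73 and 0.68 in naïve flies. They were 0.69, 0.48 and 0.57 in unpaired and 0.55, 0.44 and 1.85 in paired flies at TI-1, and 0.57, 0.31 and 0.17 in unpaired and 0.04, 0.47 and 1.33 in paired flies at TI-2. Paired TI-2 thus held both the lowest value of Ddc and its second highest. Ddc had the highest mean of the set, 0.62 ± 0.116 (SE; 1.54-fold; adjusted p 0.00072 in limma), at or above that of 89.8% of all genes.

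Trh catalyses the first step of serotonin synthesis in neurons. Its values were low and close together in naïve flies, at 0.14, 0.10 and 0.14. At TI-1 they were 0.52, 0.53 and 0.56 in unpaired and 0.55, 0.23 and 1.78 in paired flies. At TI-2 they were 0.31, 0.24 and 0.54 in unpaired and 0.31, 0.37 and 1.43 in paired flies. All 12 trained profiles lay above the 3 naïve profiles, which was the case for 2.92% of all genes. Over the 5 groups Trh was called higher than Dam-only, with a mean of 0.52 ± 0.114 (SE; 1.43-fold; adjusted p 0.00236 in limma).

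The transporters of monoamines had lower values than the enzymes. Vmat, which loads dopamine and serotonin into vesicles, was below 0 in 14 of 15 profiles. It measured -0.10, -0.15 and -0.15 in naïve flies, and the other values lay between -0.09 and -0.01 apart from 0.62 in paired TI-1 replicate 3. DAT takes up dopamine from the synaptic cleft. It lay between -0.18 and 0.16 with a median of 0.07, and neither end of this range belonged to naïve flies. Neither gene was called, with means of -0.025 ± 0.045 and 0.06 ± 0.025 (SE) and adjusted p of 0.681 and 0.0727 in limma.

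SerT takes up serotonin, and it was the member that varied most between profiles. In naïve flies its values were -0.23, -0.31 and -0.29. At TI-1 they were -0.21, -0.06 and 0.05 in unpaired and -0.05, -0.02 and 2.66 in paired flies. At TI-2 they were -0.29, -0.26 and -0.44 in unpaired and -0.13, -0.21 and 0.50 in paired flies. SerT was at or above 97.4% of all genes in paired TI-1 replicate 3, and at or above 5.3% to 72.7% in the other 14 profiles. The mean over all 15 profiles was 0.05 ± 0.176 (SE; adjusted p 0.852 in limma), and without paired TI-1 replicate 3 it was -0.13 (adjusted p 0.0379).

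VGlut, the vesicular glutamate transporter, was the lowest of the set. Its values were -0.29, -0.31 and -0.34 in naïve flies. They were -0.22, -0.19 and -0.11 in unpaired and -0.26, -0.14 and 0.50 in paired flies at TI-1, and -0.22, -0.21 and -0.13 in unpaired and -0.26, -0.18 and -0.35 in paired flies at TI-2. VGlut was below 0 in 14 of 15 profiles, with paired TI-1 replicate 3 as the exception. Its mean of -0.18 ± 0.048 (SE; adjusted p 0.00706 in limma) was short of the minimum size. Without paired TI-1 replicate 3 it was -0.23 (adjusted p 1.48e-06) and VGlut was called lower than Dam-only.

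Gad1, the glutamate decarboxylase that makes GABA, was above 0 in 15 of 15 profiles but by little. Its values ran from 0.04 to 0.30 with a median of 0.06. The highest again was that of paired TI-1 replicate 3. The mean of 0.10 ± 0.024 (SE; adjusted p 0.00335 in limma) did not reach the minimum size.

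Thus 4 of 10 members (VAChT, ple, Ddc and Trh) were called higher than Dam-only and 0 of 10 lower. Over all genes, 28.6% were called higher and 4.51% lower. The median of the members was 0.13 and that of all genes 0.08. Without paired TI-1 replicate 3 the same 4 members were higher and VGlut was lower, while the number of all genes called lower went from 788 to 1823. Leaving out all replicates 1 or all replicates 2 ended the calls of ple, Ddc and Trh (adjusted p from 0.0123 to 0.0362 in limma), while VAChT remained called. The means themselves were larger in these fits, at 0.49 and 0.50 for ple, 0.70 and 0.69 for Ddc and 0.59 and 0.63 for Trh. Leaving out all replicates 3 made the means smaller, at 0.34 for ple, 0.47 for Ddc and 0.33 for Trh, and their calls remained. When each profile was centred on its median, 4394 genes were higher and 1826 lower instead of 5006 and 788, and the means of DAT and SerT went below 0 to -0.015 and -0.025. In the 3 naïve profiles alone, 0 genes were called (0% in each direction), with 5239 higher and 3169 lower at an unadjusted p under 0.05. The smallest adjusted p there was 0.011 in limma, so naïve means are given as levels. They were 0.62 for Ddc, 0.43 for ple, 0.35 for VAChT, 0.13 for ChAT, 0.125 for Trh, 0.09 for Gad1, 0.03 for DAT, -0.13 for Vmat, -0.27 for SerT and -0.31 for VGlut.

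In the order of the means over 5 groups, most neighbours did not differ by more than their spread over the 15 profiles. Ddc was above Trh by 0.105 (SD 0.27), and Trh above ple by 0.07 (SD 0.26). ple was above VAChT by 0.14 (SD 0.28). These differences were smaller than their SD, although the first gene was higher in 11, 11 and 12 of 15 profiles. VAChT was above ChAT in 15 of 15 profiles by 0.16 (SD 0.083), and Vmat above VGlut in 15 of 15 by 0.16 (SD 0.077). ChAT and Gad1 differed by 0.04 (SD 0.043), with ChAT higher in 14 of 15 profiles. Trh was in second place over the 5 groups, but in naïve flies it ranked next below ChAT.

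**Figure D2:**
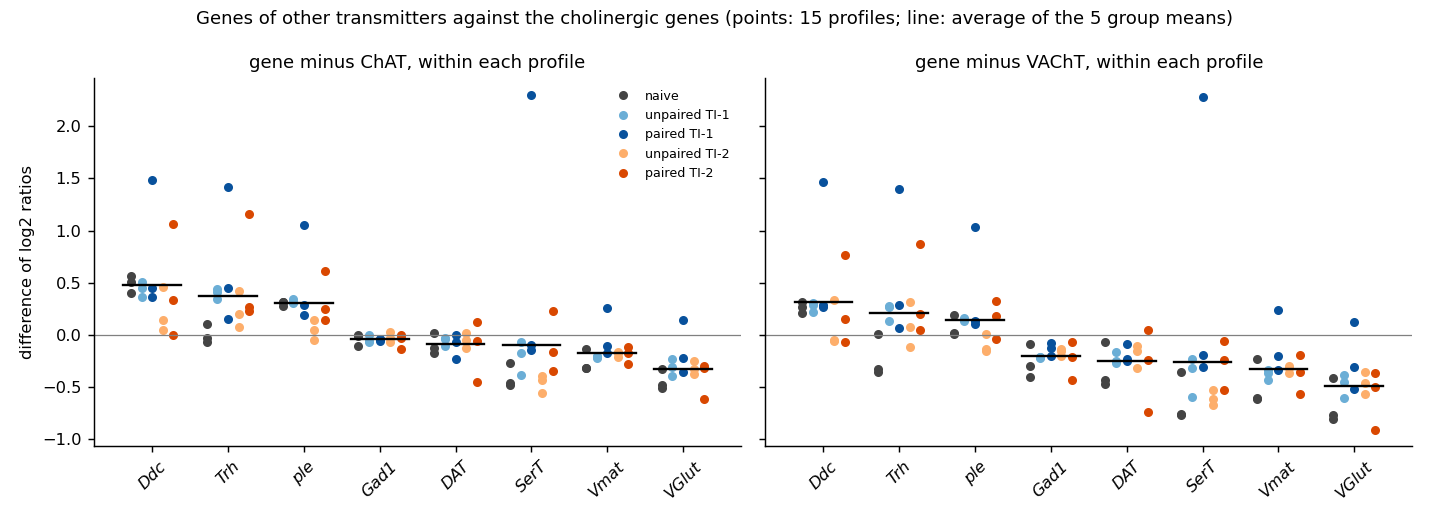
Difference of log2 ratios (y axis) between each gene of another transmitter (x axis) and ChAT on the left or VAChT on the right; each point is 1 of 15 profiles, coloured by group, and the line is the average of the 5 group means. Ddc, Trh and ple lie mostly above 0 in both panels, Vmat and VGlut lie below 0 in 14 of 15 profiles, and the highest points of ple, Ddc, Vmat, Trh, SerT and VGlut belong to paired TI-1 replicate 3.

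To compare the cholinergic genes with the rest, the value of ChAT or VAChT was subtracted from that of every gene in the same profile and the difference was tested with limma over all genes. Any shift of a whole profile cancels in such a difference. The genes of monoamine synthesis were above ChAT, and VGlut was below it. Ddc was higher than ChAT by 0.475 ± 0.092 (SE; adjusted p 0.000626), Trh by 0.37 ± 0.093 (adjusted p 0.00366) and ple by 0.30 ± 0.059 (adjusted p 0.000696). In single profiles ple was above ChAT in 14 and Trh in 13 of 15. Of the 2 exceptions for Trh, both were naïve. VGlut was lower than ChAT by an average difference of -0.33 ± 0.040 (adjusted p 2.32e-05 in limma), and it was lower in 14 of 15 profiles.

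Of the 8 genes of other transmitters, 3 were thus called above ChAT and 1 below it. Among all genes, 19.7% were above ChAT and 18.3% below. Vmat was lower than ChAT by a difference of -0.17 (adjusted p 0.000615 in limma), which did not reach the minimum size. Gad1 was within 0.14 of ChAT in every profile, with a mean difference of -0.04 ± 0.021 (SE; adjusted p 0.083 in limma). DAT differed by -0.09 ± 0.040 (adjusted p 0.066 in limma). For SerT the difference was -0.10 ± 0.153 with all profiles (adjusted p 0.579 in limma) and -0.26 without paired TI-1 replicate 3 (adjusted p 0.000185), which was a call. The call of ple and that of Trh ended without replicate 1 or replicate 2, and that of Ddc without replicate 2. The differences were larger in these fits, at 0.32 and 0.35 for ple, 0.42 and 0.475 for Trh and 0.54 for Ddc. Without replicate 3 they were smaller, at 0.228 for ple, 0.214 for Trh and 0.356 for Ddc. With array weights they were 0.213, 0.204 and 0.383 in the same order. The calls remained in both of these fits. With an unweighted mean over fragments Ddc was above ChAT by 0.26 (adjusted p 0.0187 in limma) and was not called.

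VAChT, with its higher value, had more genes below it. Ddc was the member called above VAChT, by 0.31 ± 0.089 (SE; adjusted p 0.00597 in limma), against 12% of all genes. Called below it were VGlut by a difference of -0.49 ± 0.058, Vmat by -0.33 ± 0.051, DAT by -0.25 ± 0.056 and Gad1 by -0.205 ± 0.038 (adjusted p from 1.14e-05 to 0.00119 in limma). That was 4 of 8 genes, and 48.1% of all genes were below VAChT. ple and Trh were above VAChT by 0.14 (adjusted p 0.0641 in limma) and 0.21 (adjusted p 0.0581), and they were not called. SerT was below by -0.26 (adjusted p 0.139 in limma), and by -0.43 without paired TI-1 replicate 3 (adjusted p 1.87e-06). Without replicate 2 the calls of Ddc, DAT, Gad1 and Vmat ended, without replicate 1 that of Ddc, and without replicate 3 those of DAT and Gad1. With an unweighted mean over fragments Ddc was above VAChT by 0.145 (adjusted p 0.144 in limma), no longer a call, while ple was called above it by 0.25 (adjusted p 0.00061 in limma). DAT and Gad1 were then below VAChT by differences of -0.146 and -0.149, short of the minimum size.

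The comparison with ChAT depends on which fragments stand for ChAT. With only the 23 fragments that no other gene shares, its mean over the 5 groups was -0.03. DAT, SerT, Gad1 and Vmat were then above ChAT by 0.15, 0.15, 0.105 and 0.01, each short of the minimum size, and VGlut was below it by a difference of -0.135, no longer a call. Ddc, Trh and ple were called above it by 0.84, 0.72 and 0.48. In paired TI-1 replicate 3 the cholinergic genes ranked lower among all genes. ChAT was at or above 37.3% and VAChT 38.4% of all genes there, against 55.2% to 69.8% and 63.9% to 80.9% in the other profiles.

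**Figure D3:**
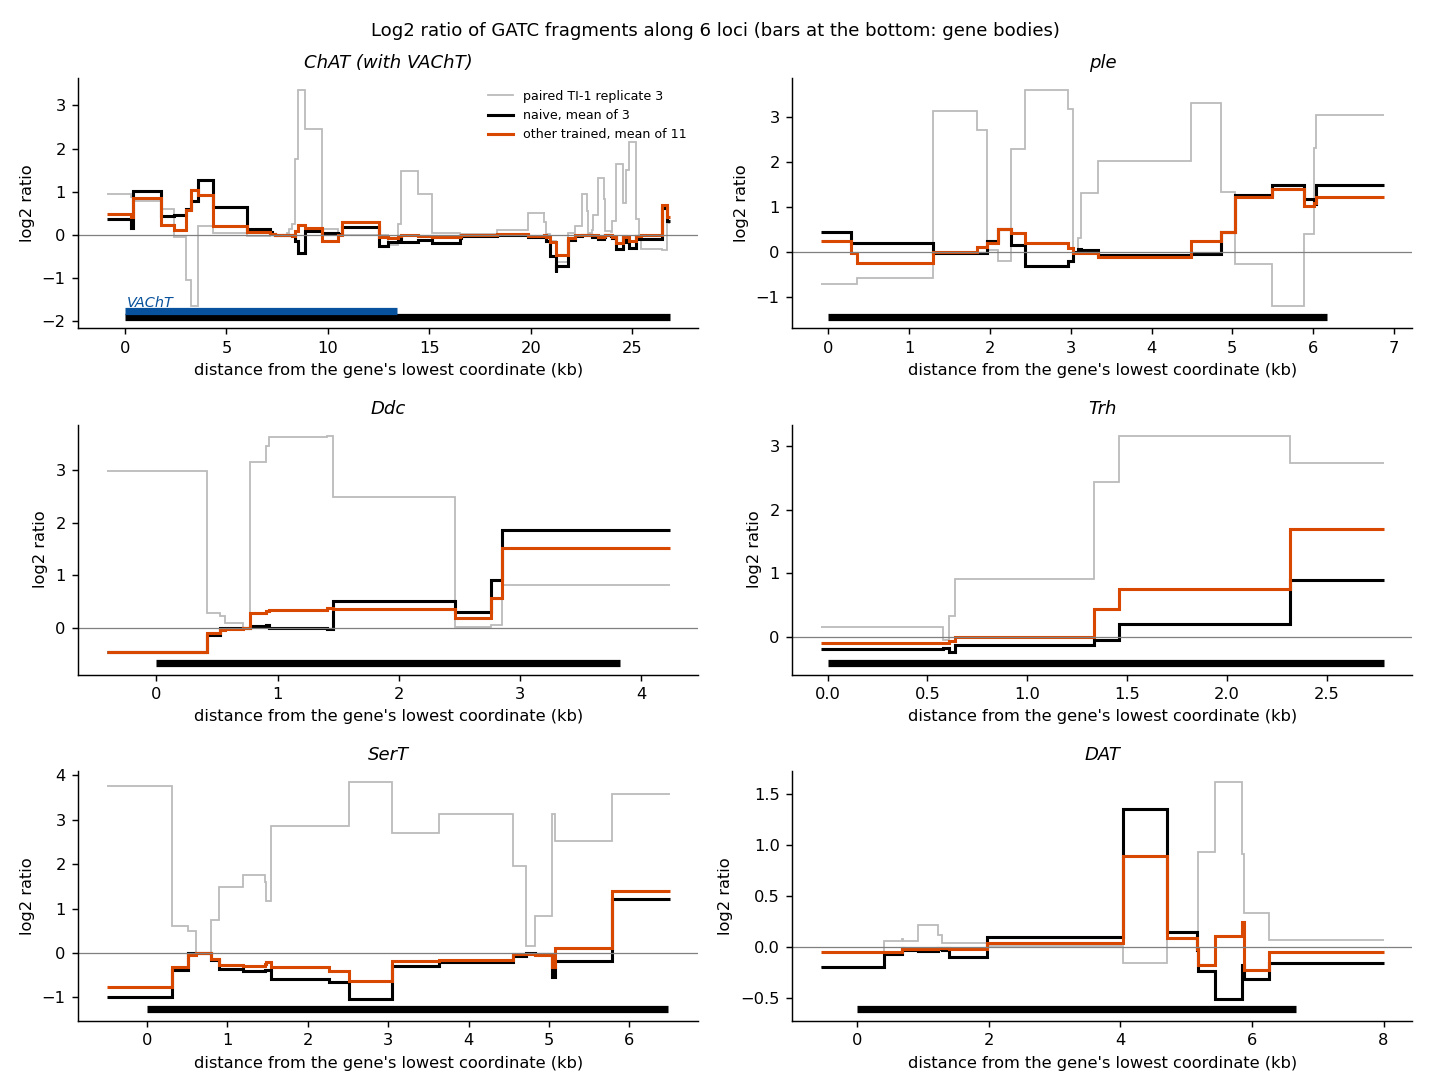
Log2 ratio of single GATC fragments (y axis) against the distance from the lowest coordinate of the gene in kb (x axis) at 6 loci; black is the mean of the 3 naïve profiles, orange the mean of 11 trained profiles, grey paired TI-1 replicate 3, and the bars at the bottom are gene bodies (VAChT in blue). The black and orange lines are highest in the first 4.5 kb of ChAT and VAChT, towards the high-coordinate end of ple, Ddc, Trh and SerT, and inside DAT, and the grey line departs from the others.

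Single fragments showed that the mean over a gene hides local signal. Each member has between 7 fragments (Trh) and 71 (ChAT), and together they cover 273 different fragments. In a limma fit over 344531 fragments, which was added after the data had been seen, 26 of the 265 members' fragments tested (9.81%) were called higher than Dam-only and 11 (4.15%) lower. For all fragments these shares were 15.9% and 5.84%. The gene table gives no strand, so an end of a gene body is named by its coordinate and not as the start or end of transcription.

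In ChAT and VAChT the highest fragment was the one at 3R 18709101 to 18709854, which is 3600 bp from the shared first coordinate. Its mean log2 ratio was 0.93 ± 0.09 (SE; 1.91-fold; adjusted p 2.82e-05 in limma), and it ran from 0.19 to 1.6 over the profiles. The lowest value, 0.19, was that of paired TI-1 replicate 3. The lowest fragment of ChAT lay 21243 bp from the first coordinate, outside VAChT, with a mean of -0.54 ± 0.07 (adjusted p 0.000104 in limma). Of the 10 fragments of ChAT called higher, 8 were shared with VAChT, and all 3 called lower lay outside it.

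In the monoamine synthesis genes the fragment with the highest mean over the 5 groups was the last one, at the high-coordinate end. In ple (3L 6713356 to 6719525) it began 6030 bp from the first coordinate, with a mean of 1.4 ± 0.18 (SE; 2.63-fold; adjusted p 0.000136 in limma) and a range of 0.23 to 3.04. In Ddc (2L 19116483 to 19120306) it began at 2848 bp, with a mean of 1.53 ± 0.14 (2.90-fold; adjusted p 1.7e-05 in limma) and a range of 0.14 to 2.32. In Trh (3L 1190384 to 1193173) it began at 2317 bp, with a mean of 1.61 ± 0.20 (3.05-fold; adjusted p 0.000103 in limma) and a range of 0.47 to 3.46. All of these were above 0 in 15 of 15 profiles. The median over all fragments of a gene was 0.26 in ple, 0.42 in Ddc and 0.03 in Trh. In ple the neighbouring fragments from 5490 bp to 6030 bp were also high, with naïve means of 1.08 to 1.5, and 8 of its 21 fragments were called higher.

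The transporter genes held such fragments too, although their gene values were near or below 0. In SerT (2R 24404595 to 24411074) the last fragment, from 5790 bp, had a mean of 1.5 ± 0.25 (SE; 2.84-fold; adjusted p 0.000593 in limma), and it was above 0 in 15 of 15 profiles. Its naïve values ran from 0.77 to 1.61, while the SerT gene value was negative in all of these profiles. Without paired TI-1 replicate 3, 10 of the 21 SerT fragments were called lower and the last one higher, against 1 and 1 with it. In DAT (2R 16558567 to 16565238) a single fragment of 682 bp inside the gene, 4033 bp from the first coordinate, was called higher, with a mean of 0.92 ± 0.16 (1.89-fold; adjusted p 0.000881 in limma). Its naïve values ran from 1.11 to 1.52. Paired TI-1 replicate 3 had -0.16 at this fragment.

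VGlut, Vmat and Gad1 had little of this. In VGlut (2L 2400295 to 2410662) 0 of 20 fragments were called higher and 4 lower, and the lowest, 9054 bp from the first coordinate, had a mean of -0.76 ± 0.12 (SE; adjusted p 0.000503 in limma). In Vmat (2R 13513132 to 13534251) the means of the 64 fragments lay between -0.21 and 0.13, and 1 was called lower. Without paired TI-1 replicate 3, 8 fragments of VGlut and 6 of Vmat were called lower. In Gad1 (3L 4074077 to 4088744) the highest and the lowest fragment lay close together at 105 bp and 584 bp, with means of 0.44 ± 0.12 and -0.64 ± 0.10 (adjusted p 0.0117 and 0.000418 in limma). Gad1 had 3 fragments called higher and 2 lower.

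The highest fragment was the first or the last of the gene body in 5 of 10 members (ple, Ddc, Trh, SerT and VGlut). For ple this rested on paired TI-1 replicate 3, as the means of the naïve and other trained profiles were higher at the fragment from 5490 bp. Among the 12348 genes with at least 5 fragments this share was 36.2%. The median of the highest fragment mean was 0.93 for the members and 0.59 for these genes, and the members include one fragment that counts for both ChAT and VAChT. This comparison was not matched for the number of fragments, of which members have 7 to 71 and all genes a median of 8. By percentile among genes, the highest fragments of the members ran from 25.2 (VGlut) to 82.5 (Trh), with ChAT and VAChT at 62.3.

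Training was compared in 2 ways, as paired against unpaired flies within each interval and as each trained group against naïve flies. The first asks about the association of odor and sucrose. At TI-1, paired minus unpaired, 0 of 10 members and 0 of all genes were called (0% in each direction). Of all genes 1 was higher and 178 lower at an unadjusted p under 0.05 in limma. At TI-2 it was again 0 of 10 members and 0 of all genes, with 51 higher and 49 lower at an unadjusted p under 0.05. The difference of the training effect between the intervals had 0 calls among members and all genes (0 higher and 82 lower at an unadjusted p under 0.05 in limma).

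**Figure D4:**
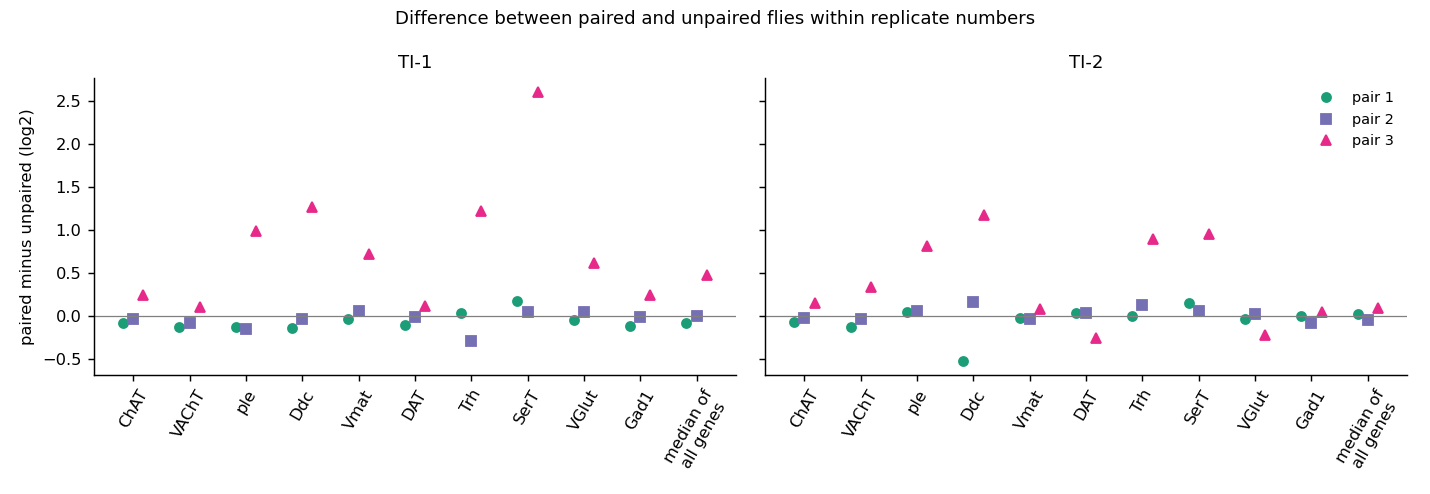
Log2 ratio of paired minus unpaired flies (y axis) for the 10 genes and the median of all genes (x axis) at TI-1 and TI-2; each point is 1 replicate number. At TI-1 pair 3 is above 0 for all 10 genes, and pairs 1 and 2 lie between -0.30 and 0.17.

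The largest differences between paired and unpaired flies came from pair 3. At TI-1 that pair was higher in paired flies for 10 of 10 members, with a median of 0.66, and the median of all genes was 0.47. In pairs 1 and 2 only 2 and 3 of the 10 members were higher, with medians of -0.09 and -0.02. SerT showed the widest gap, with differences of 0.17, 0.04 and 2.61 in pairs 1, 2 and 3. Its mean of 0.94 ± 0.662 (SE; adjusted p 0.836 in limma) dropped to 0.10 without pair 3. Ddc and Trh were similar, with means of 0.37 and 0.32 that changed sign to -0.09 and -0.14 without pair 3. With each profile centred, the median difference of all genes at TI-1 moved from 0.11 to -0.06, and that of ChAT from 0.04 to -0.13.

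At TI-2 pair 3 was higher in paired flies for 8 of 10 members, with a median of 0.24 against 0.09 for all genes. SerT differed by 0.15, 0.05 and 0.95 in the 3 pairs, with a mean of 0.38 ± 0.229 (SE; adjusted p 0.891 in limma) and 0.10 without pair 3. ple differed by 0.04, 0.06 and 0.81, with a mean of 0.30 ± 0.205 (adjusted p 0.891 in limma). SerT was thus the 1 member of 10 that was higher in paired flies in all 3 pairs at TI-1, and SerT and ple were the 2 at TI-2. Among all genes, 10.3% were higher in all 3 pairs at TI-1, 8.59% at TI-2 and 2.09% at both. The cholinergic genes had mean differences of 0.04 ± 0.115 and 0.02 ± 0.078 for ChAT and -0.04 ± 0.102 and 0.05 ± 0.125 for VAChT at TI-1 and TI-2.

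Against naïve flies, 0 of 10 members and 0 of all genes were called in any of the 4 trained groups (0% in each direction), which share the naïve profiles. At an unadjusted p under 0.05 in limma, 1290 genes were higher and 75 lower in unpaired TI-1, 66 and 282 in paired TI-1, 559 and 572 in unpaired TI-2, and 294 and 266 in paired TI-2. Trh had the smallest unadjusted p of the members. In unpaired TI-1 it was higher than in naïve flies by 0.41 ± 0.033 (SE; unadjusted p 2.85e-05, adjusted p 0.325 in limma). The median difference of all genes there was 0.05. In the other groups the difference of Trh from naïve flies was 0.73 ± 0.420 in paired TI-1, 0.24 ± 0.084 in unpaired TI-2 and 0.58 ± 0.319 in paired TI-2, with adjusted p from 0.481 to 0.703 in limma.

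The values of Trh in trained flies, from 0.23 to 1.78, did not overlap with the naïve values of 0.10 to 0.14. The same was true for Vmat, where trained flies lay between -0.09 and 0.62 and naïve flies between -0.15 and -0.10. So 2 of 10 members were higher in all 12 trained profiles than in the 3 naïve ones, which was the case for 2.92% of all genes, and 0 of 10 were lower in all (0.12% of all genes). Relative to the other genes of a profile, Trh was at or above 59.3% to 70.6% in naïve flies and 69.8% to 93.3% in trained flies, so these ranges overlapped. Vmat was at or above 25.7% to 29.1% in naïve flies and 20% to 50.2% in trained flies, a range that contains the naïve one. VGlut came close, with 11 of 12 trained profiles above the naïve ones.

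Within Trh the largest differences lay in the 3 fragments at its high-coordinate end. The fragment 1461 bp from the first coordinate measured 0.17, 0.12 and 0.29 in naïve flies, and from 0.25 to 3.16 in trained flies with a median of 0.58. The last fragment measured 0.84, 0.78 and 1.06 in naïve flies, and from 0.47 to 3.46 with a median of 1.64 in trained flies. In both of them 10 of 12 trained profiles were above the naïve ones. Over the first 1337 bp the naïve means lay between -0.25 and -0.14 and the trained medians between -0.09 and 0.01. In these fragments 3 to 11 of 12 trained profiles were above the naïve ones, with 11 at the fragment 609 bp from the first coordinate. The study describes the naïve flies as kept on the same food and at the same temperature, without training. Their interval is not in the labels, so training and other differences between naïve and trained flies cannot be told apart.

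For the monoamine enzymes other than Trh the trained groups did not move together. ple was lower than naïve in unpaired TI-2, with an average difference of -0.25 ± 0.075 (SE; adjusted p 0.481 in limma), and Ddc likewise by -0.27 ± 0.130. In unpaired TI-1 they differed from naïve flies by 0.03 and -0.04. ChAT and VAChT differed from naïve flies by -0.08 to 0.055 in the 4 groups, with SE between 0.050 and 0.154.

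Among 22 further genes of transmitter metabolism and transport, 9 were called higher than Dam-only over the 5 groups and 0 lower, with a median of 0.14. Over all genes 28.6% were higher and 4.51% lower, with a median of 0.08. Both genes of acetylcholine recycling were among the 9: ChT, the choline transporter, had a mean of 0.31 ± 0.047 (SE; adjusted p 0.000167 in limma), and the other was Ace, acetylcholinesterase. Of the other groups, 2 of 5 monoamine genes, 1 of 3 octopamine genes, 0 of 3 histamine genes, 1 of 3 GABA genes and 3 of 6 glutamate genes were called. VGAT, the vesicular GABA transporter, had a mean of 0.28 ± 0.040 (adjusted p 0.000111 in limma) and was above 0 in 15 of 15 profiles. Tdc2, the neuronal tyrosine decarboxylase, had a mean of 0.46 ± 0.132 (adjusted p 0.0116 in limma) with values from 0.05 to 2.30. Hdc, which makes histamine, had a mean of 0.10 ± 0.054 (adjusted p 0.146 in limma).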

How the data were processed

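TaDa profiles of 15 Dam::CrebB samples, each set against a Dam-only sample, were analysed (15 profiles from 30 samples, grouped by the labels). The authors ran the damid pipeline on read 1 (alignment to release 6, read extension, binned counts, normalization, pseudocounts) and deposited log2 ratios, Dam::CrebB divided by Dam-only, per GATC fragment. The normalization and the pseudocounts pull ratios of fragments with few reads towards 0, and exactly 0 is the value of 12.4% to 21.6% of fragments, depending on the profile. No read counts were used here, so the depth behind a value is unknown, and the 3 replicates per group limit the precision. The gene lists that the authors deposited hold their own ratios and FDR values per transcript and were not used.

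Gene values are means over fragments that overlap a gene body by at least 1 bp, with positions from a RefSeq table of release 6 (17480 genes tested). The weight is the full fragment length, including any part outside the gene body. limma 3.58.1 in R 4.3.3 (lmFit, eBayes, two-sided) was used with Benjamini-Hochberg adjustment over all genes. Thresholds were those of the study's methods. Paired minus unpaired was taken within replicate numbers. The procedures were tested on simulated data with independent normal noise, whose spread was taken from the naïve and unpaired profiles only. The simulation therefore does not cover the wider spread of the paired profiles, such as that of paired TI-1 replicate 3. p-values measure the spread between these samples only. All 10 members are named, and of the further transmitter genes those without a value in the text are given as counts. The members and lists were chosen with earlier results of these data known. Alternatives were another weighting, fragments at 0 left out, centring, at least 5 fragments, each replicate left out, array weights, other thresholds, unshared fragments, the replicate block and a single fit. The fits over fragments, without paired TI-1 replicate 3, and the portions of ChAT were chosen after seeing the data. Values and plots were made with Python 3.11.15, numpy 2.4.6, pandas 2.3.3 and matplotlib 3.10.9.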

Additional observations from a re-analysis of the deposited data

How the results depend on the processing

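Of 1327 member values under the alternatives, 0 reversed a call, 25 lost one and 43 gained one, and 119 values past the threshold in neither setting changed sign. VAChT, ple, Ddc and Trh kept means above 0 throughout. With an unweighted mean over fragments VAChT (0.19) and Ddc (0.34) were no longer called over the 5 groups. VGlut was called lower in 5 alternatives, among them centring (-0.25) and array weights (-0.24). The array weights over the 5 groups were very uneven. Unpaired TI-1 replicate 2 had 46.1, paired TI-1 replicate 3 had 0.009, and the other profiles had 0.144 to 3.78. A call kept with such weights leans on few profiles. In naïve flies 0 genes were called, but 3802 were with fragments at 0 left out, 5017 with centring, 4235 with at least 5 fragments, 7778 with array weights, 8021 at an adjusted p under 0.05, 2894 in the single fit and 0 to 4196 with a replicate left out, and up to 5 members were among them. Leaving out a replicate gave 3103 to 6874 called genes over the 5 groups (5794 with all), 3442 to 8151 against ChAT (6630) and 4206 to 12292 against VAChT (10509). Without paired TI-1 replicate 3 alone, 8243 genes were called against ChAT and 12365 against VAChT. With fragments of no other gene, 4009 genes were above ChAT and 492 below it (3436 and 3194 with all fragments), and VAChT had no value because all its fragments are shared with ChAT. Array weights called 925 genes at TI-1 between paired and unpaired flies, with 0 of the members. The cause of these changes was not tested.

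The labels share replicate numbers between groups, but same-numbered profiles did not deviate together in general (for TI-1 the r of deviations from the group means was 0.535, 0.03 and 0.46, for TI-2 it was -0.12, -0.09 and -0.25). With no replicate block, paired minus unpaired had 0 calls at both intervals, and SerT at TI-1 had the same mean of 0.94 with an adjusted p of 0.838 in limma. With the replicate block the comparisons with naïve flies also had 0 calls. The promoter windows were not run, because no strand or promoter positions were used here. Depth is unknown, so values of short genes such as Trh, with 7 fragments, carry an error that only the replicates show.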
